A study of Mus musculus with 38 samples.

Results

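Adipocyte lipid storage and adipokine genes encode the proteins with which fat cells take up, store and release fatty acids and the hormones they secrete. The 10 genes described here were Lpl, Fabp4, Dgat2, Plin1, Cidec, Pnpla2, Adipoq, Cfd, Retn and Lep. They were chosen by gene symbol from 25746 genes in the deposited expression tables, and all 10 were found. Open chromatin was read from ATAC-seq peaks within 50 kb of each gene, which gave 124 of the 123191 merged peak regions.

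The cells were Tcf21 lineage cells of mouse adipose tissue, which the series title places in visceral fat, sorted by flow cytometry at 5000 cells a library. Tcf21 is a transcription factor of the basic helix-loop-helix family, and the study set cells of knockout mice (KO) against wild-type cells (WT). Mice received tamoxifen to activate MerCreMer, a Cre recombinase held inactive until the drug is given. The labels give 75 mg/kg a day by gavage for adults and 100 µg a day by stomach injection for newborns, without saying which group had which dose.

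RNA-seq covered 5 KO and 7 WT libraries at 3 weeks of age (3W), 2 KO and 4 WT libraries once high-fat feeding had lasted 1 week (1W HFD), and 2 KO and 5 WT libraries at 12 weeks of feeding (12W HFD). High-fat feeding began at 6 weeks of age. WT cells were also taken at postnatal day 12 (P12, 2 libraries) and at 6 months (6M, 2 libraries), on regular diet like the 3W mice. ATAC-seq covered 2 KO and 3 WT libraries at 3W, 2 WT libraries at 1W HFD and 2 WT libraries at 12W HFD. At 3W the titles pair the libraries, with each of the 5 KO RNA libraries in a pair with 1 or 2 WT libraries and WT replicate 4 in none, and do not say what a pair shares. Age and diet moved together between 3W and either HFD group and cannot be told apart there. No label says whether libraries of a group came from separate animals, so p-values measure the spread between libraries, which may be technical. The sources used here name neither the promoter driving the Cre nor the part of Tcf21 that was deleted.

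Fat cells store fatty acids as triglyceride in a single large droplet. Lipoprotein lipase (Lpl) frees fatty acids from blood lipoproteins, Fabp4 carries them inside the cell, Dgat2 completes triglyceride synthesis, Plin1 and Cidec coat and enlarge the droplet, and Pnpla2 (adipose triglyceride lipase) starts its breakdown. Adiponectin (Adipoq), leptin (Lep), adipsin (Cfd) and, in mice, resistin (Retn) are released by fat cells into blood. Many of these genes are known to rise as progenitor cells of fat tissue become fat cells.

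Promoter sequences are shown for a few of the genes, chosen to span those with and without an ATAC peak over the promoter. RefSeq promoter windows (GRCm38.p6, from 250 bases before to 50 after the gene start) were matched for Pnpla2, Retn, Adipoq, Plin1, Lep, Cfd and Cidec. Each sequence below runs 5′ to 3′ on the gene's strand over the 250 bases before its start, and capitals mark a motif match. Pnpla2 (chr7:141454938-141455187, plus strand) is shown as the one matched promoter with a peak in all 9 lists. Retn (chr8:3655520-3655769, plus strand) had a peak in 1 list. Adipoq (chr16:23146286-23146535, plus strand), Plin1 (chr7:79732777-79733026, minus strand) and Lep (chr6:29059971-29060220, plus strand) had a peak in 0 of 9 lists.
Pnpla2: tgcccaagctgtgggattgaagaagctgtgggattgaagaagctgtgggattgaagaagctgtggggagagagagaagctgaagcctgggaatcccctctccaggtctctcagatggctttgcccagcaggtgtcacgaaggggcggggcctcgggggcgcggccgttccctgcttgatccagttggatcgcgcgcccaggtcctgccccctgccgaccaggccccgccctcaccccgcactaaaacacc
Retn: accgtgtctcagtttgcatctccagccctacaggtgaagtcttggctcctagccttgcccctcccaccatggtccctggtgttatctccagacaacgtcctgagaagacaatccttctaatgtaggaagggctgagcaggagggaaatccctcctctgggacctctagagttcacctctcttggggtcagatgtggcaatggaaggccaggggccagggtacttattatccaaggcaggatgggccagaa
Adipoq: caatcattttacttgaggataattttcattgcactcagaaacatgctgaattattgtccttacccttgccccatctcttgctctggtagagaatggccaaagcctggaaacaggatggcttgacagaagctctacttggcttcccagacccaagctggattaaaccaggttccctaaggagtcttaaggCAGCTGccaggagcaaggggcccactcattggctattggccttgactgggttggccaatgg
Plin1: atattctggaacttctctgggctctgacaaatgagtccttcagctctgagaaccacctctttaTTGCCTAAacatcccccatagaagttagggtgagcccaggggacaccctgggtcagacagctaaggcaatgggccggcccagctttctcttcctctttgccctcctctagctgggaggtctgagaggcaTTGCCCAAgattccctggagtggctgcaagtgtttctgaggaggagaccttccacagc
Lep: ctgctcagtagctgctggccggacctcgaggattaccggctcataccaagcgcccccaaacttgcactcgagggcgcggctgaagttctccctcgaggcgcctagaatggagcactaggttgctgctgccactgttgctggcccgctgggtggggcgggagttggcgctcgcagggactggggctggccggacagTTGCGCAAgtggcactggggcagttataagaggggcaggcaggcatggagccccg

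The Pnpla2 promoter window overlapped peaks whose fold enrichment, as the authors' peak caller gave it, was 83.9 and 64.4 in the KO 3W lists, against 106.5, 57.6 and 62.8 in the WT 3W lists. It was 75.0 and 74.1 in the 1W HFD lists and 71.8 and 42.9 in the 12W HFD lists. Those peaks ranked between the 94.8 and 98.6 percentile of their own list. The Retn window met a peak only in WT 12W HFD replicate 2 (fold 6.56), and the windows of Adipoq, Plin1, Lep, Cfd and both Cidec starts met none. Over 32851 RefSeq promoters 43.8% had a peak in all 9 lists and 43.0% in none. The Pnpla2 stretch held 12 CG dinucleotides, against 0 for Adipoq, 1 for Plin1, 2 each for Cfd and Retn, 4 and 6 for the Cidec starts and 16 for Lep. The median over all promoters was 6, and of the 25123 promoters with at most 16 CG 55.55% had no peak. That limit was taken from Lep, the highest count among the matched promoters without a peak, and it takes in Pnpla2 too. The set is therefore no match for the promoters with few CG.

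The sequences were searched on both strands for the E-box CAGCTG, a form read by helix-loop-helix factors such as Tcf21, for the C/EBP letters TTGCNNAA, for the nuclear receptor letters AGGTCA and for TATAAA. Adipoq held CAGCTG starting 61 bases before its start, where -61 counts from the first base of the gene. The Lep match to TTGCNNAA lay at -55, and Plin1 held that motif at -187 and -58. One Cidec start held CAGCTG at -69 and the other held TTGCNNAA at -198. No 2 matches overlapped, and Pnpla2, Retn and Cfd held none of the 4 motifs. CAGCTG stood in 13% of all promoters, TTGCNNAA in 9.56%, AGGTCA in 14.02% and TATAAA in 12.4%. A match of letters is a description of the sequence and does not show that a factor binds there.

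RNA values are TPM, which scale every library to a common total of transcripts and account for transcript length. At 1 TPM or more a library had 10894 to 12825 genes, and TPM does not keep the read depth. Tcf21 itself was present but lower in the KO libraries at 3W, at 35.2 ± 18.3 TPM in KO (SD, n = 5) and 64.9 ± 27.0 TPM in WT (n = 7; exact permutation test, two-sided, p = 0.0341; limma adjusted p = 1). Within the pairs named in the titles it was lower in KO in 5 of 5. It read 20.0, 60.9, 21.9, 48.2 and 25.1 TPM in the KO libraries of pairs 1 to 5, against 37.6, 109, 46.2 and 47.6 (both in pair 3), 83.8 and 47.0 TPM in their WT partners. With the pair as a block the change was -0.90 (limma adjusted p = 0.765). It averaged 12.3 TPM in KO and 23.1 TPM in WT at 1W HFD (two-sided exact permutation p = 0.467), and 3.66 TPM in KO and 9.37 TPM in WT at 12W HFD (two-sided exact permutation p = 0.0476, the smallest that design can give). Groups follow the sample titles, because the genotype field of the labels differed from the title in 22 of 38 samples and matched all 38 titles when read in reverse order. Stromal progenitor markers, led by the matrix gene Dcn, summed to 24170 to 40349 TPM over the 29 libraries. Markers of mature fat cells summed to 17.45 to 172 TPM. Tcf21 also fell with age and diet in WT cells, by 2.62 on the log2 scale in 12W HFD against 3W (limma adjusted p = 2.91e-06). At WT 6M, on regular diet, it averaged 3.89 TPM (2.24 and 5.54 TPM), below the 9.37 TPM of WT 12W HFD. Of the 12 mature fat cell markers the most abundant were Trarg1, Nnat and Aqp7, at 23.6, 18.0 and 7.45 TPM averaged over all libraries. The droplet protein gene Plin4 averaged 1.16 TPM and the brown fat gene Ucp1, the lowest of the list, 0.04 TPM. WT 3W replicate 3 stood apart from the other WT 3W libraries, with the lowest value of 6 of the 9 members that varied there.

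**Figure D1:**
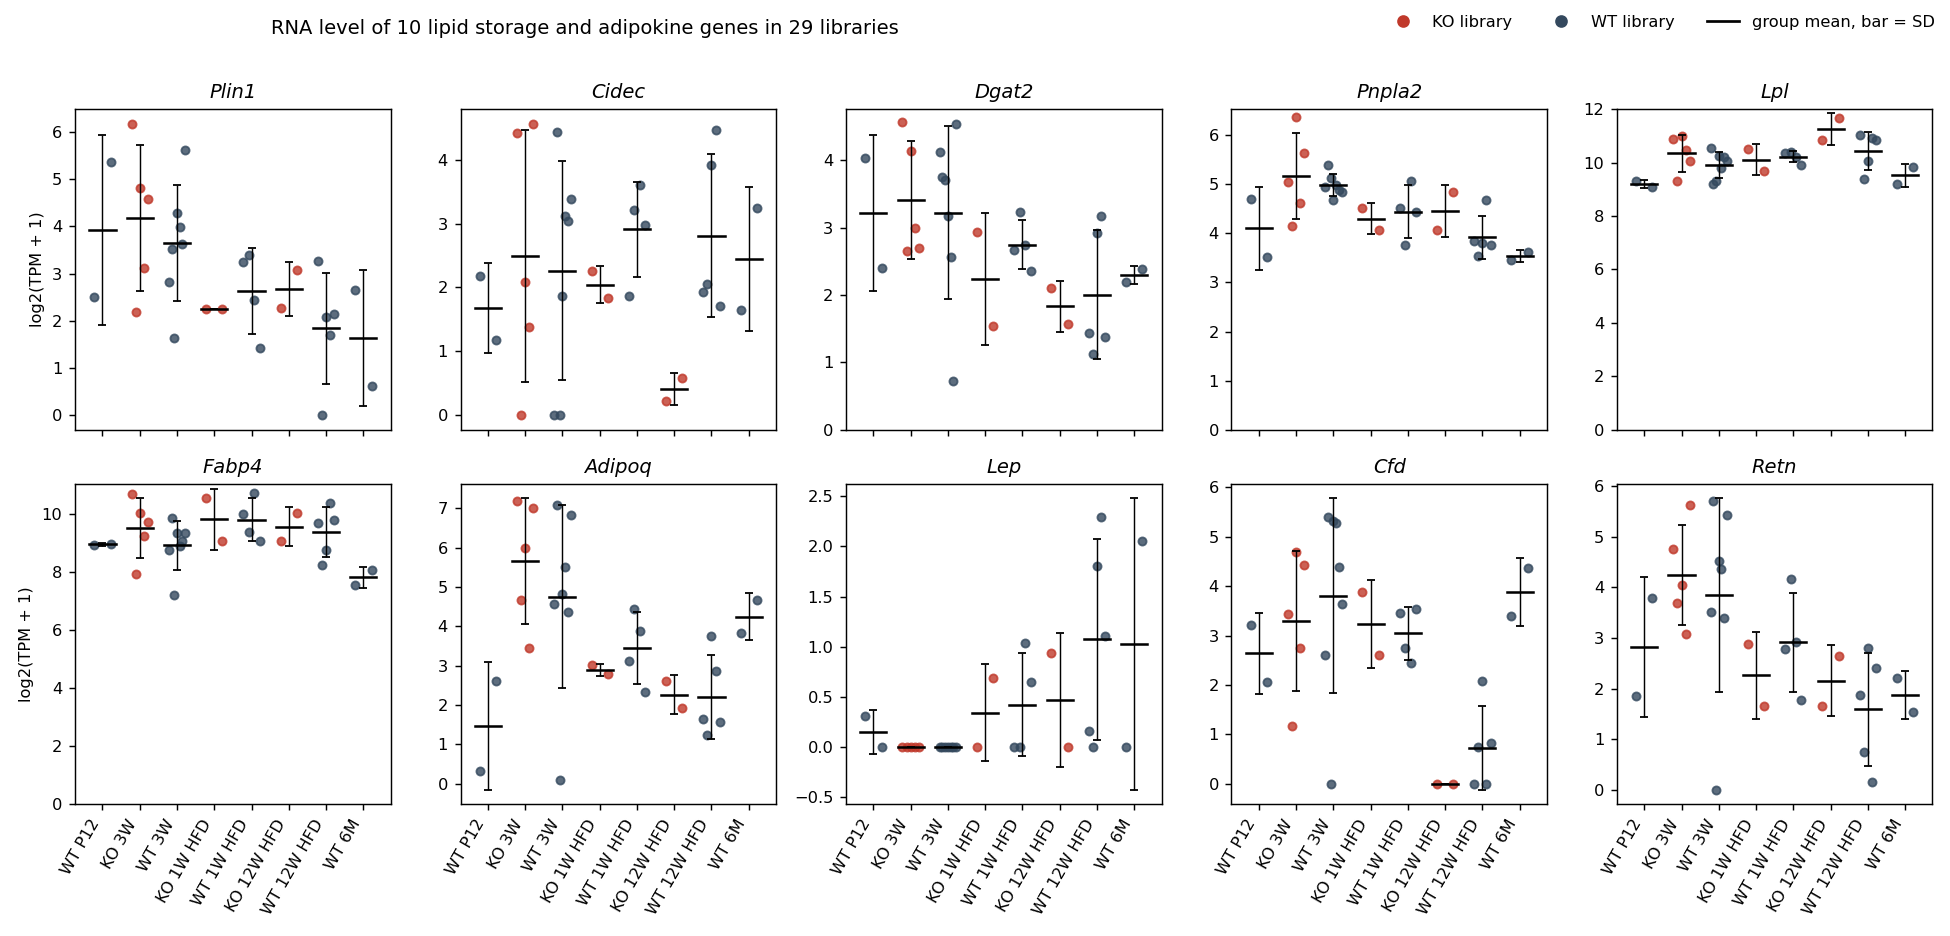
RNA level of each gene as log2(TPM + 1) in every library, grouped by age and diet with KO in red and WT in dark blue; horizontal bars are group means and vertical bars SD. Lpl and Fabp4 stand at the top in all 29 libraries, Cfd and Adipoq are low after 12W HFD, and Lep is listed at 0 in all 12 libraries of 3W.

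Of the genes for fatty acid uptake, Lpl had the highest median level of the 10, at 1169 TPM (543 to 3289 TPM over the 29 libraries), followed by Fabp4 at 609 TPM (147 to 1716 TPM). TPM accounts for length, so these levels can be set beside the median of 12.6 TPM for Adipoq and 23.5 TPM for Pnpla2. In WT cells Lpl read 2099, 668, 1057, 1919 and 1844 TPM at 12W HFD, against a lowest of 581, a median of 1063 and a highest of 1490 TPM in the 7 libraries of 3W. The ranges overlap, since WT 12W HFD replicates 2 and 3 sit inside the 3W range. The log2 change, on the log2(TPM + 1) scale, was 0.54 ± 0.30 (SE; 95% interval -0.08 to 1.15; limma adjusted p = 0.269). In KO cells Lpl read 1823 and 3289 TPM at 12W HFD, against 1893, 629.9, 2058, 1405 and 1056 TPM at 3W (0.92 ± 0.43, limma adjusted p = 0.285). The KO 12W HFD replicate 2 value was the highest of all 29 libraries.

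Fabp4 overlapped between fed and 3W libraries. It read 834, 303, 435, 1331 and 899 TPM in WT cells at 12W HFD, against a lowest of 147, a median of 546 and a highest of 929.9 TPM at 3W (0.45 ± 0.44, interval -0.44 to 1.34, limma adjusted p = 0.58). The 2 libraries of WT 6M, at 189 and 269 TPM, lay below every other library but WT 3W replicate 3 and KO 3W replicate 2. Their change against WT 3W was -1.11 ± 0.60 (limma adjusted p = 0.25).

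Dgat2, Plin1 and Cidec, the genes of triglyceride synthesis and droplet growth, stood at a few TPM. Plin1 read 8.67, 0, 3.22, 2.26 and 3.39 TPM in WT cells at 12W HFD, against a lowest of 2.12, a median of 11.3 and a highest of 48.0 TPM at 3W. All fed libraries but replicate 1 were below all but the lowest library of 3W, and the ranges overlap. The change was -1.80 ± 0.67 (limma adjusted p = 0.0698), which passed the threshold only without WT 3W replicate 3 (adjusted p = 0.0285) or without WT 12W HFD replicate 1 (adjusted p = 0.0429). In KO cells Plin1 read 3.84 and 7.47 TPM at 12W HFD, against 71.5, 3.56, 26.9, 7.65 and 23.0 TPM at 3W (-1.5 ± 0.95, limma adjusted p = 0.521).

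Dgat2 read 1.71, 1.18, 6.53, 7.99 and 1.58 TPM in WT cells at 12W HFD, against a lowest of 0.64, a median of 12.1 and a highest of 22.3 TPM at 3W. Replicate 6 of WT 3W was the low library of its group. The change was -1.22 ± 0.52 (limma adjusted p = 0.129), or -1.64 without that replicate (adjusted p = 0.0138). Both KO libraries of 12W HFD, at 3.28 and 1.95 TPM, lay below all 5 KO libraries of 3W, which spanned 5.30 to 22.7 TPM, yet the change of -1.58 ± 0.75 did not pass (limma adjusted p = 0.3).

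Cidec was the most scattered of the 3. It was listed at 0 in WT 3W replicates 1 and 3 and in KO 3W replicate 2, while other 3W libraries reached 22.7 TPM in KO and 20.6 TPM in WT. WT cells of 12W HFD read 2.80, 3.13, 14.2, 21.1 and 2.26 TPM. The change of WT 12W HFD against WT 3W was 0.55 ± 0.76, with an interval of -1.01 to 2.10.

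Pnpla2, the lipase that opens triglyceride breakdown, fell with age and diet in WT cells. It read 13.4, 10.7, 12.9, 24.7 and 12.6 TPM at 12W HFD, against a lowest of 24.8, a median of 30.0 and a highest of 41.1 TPM at 3W. The ranges do not overlap, although the 24.72 TPM of WT 12W HFD replicate 4 stood next to the lowest 3W library at 24.75 TPM. The change was -1.06 ± 0.30 (limma adjusted p = 0.0156), and without WT 12W HFD replicate 2 the adjusted p was 0.0509. At 6M it read 10 and 11.35 TPM, below all 7 libraries of WT 3W (-1.44 ± 0.41, limma adjusted p = 0.023). That call was lost without WT 6M replicate 1 (adjusted p = 0.174) or replicate 2 (adjusted p = 0.123), each of which leaves 1 library assumed to vary like the other groups. The median of all genes in this comparison was -0.24, and with median-ratio scaling, which brought it to -0.03, Pnpla2 was at -1.15 (adjusted p = 0.0602). That scaling also turned the split of all called genes to 1006 higher and 565 lower, against 626 higher and 1073 lower without it. In KO cells Pnpla2 read 15.9 and 27.7 TPM at 12W HFD, against 32.1, 16.8, 82.35, 23.5 and 49 TPM at 3W (-0.71 ± 0.43, limma adjusted p = 0.484).

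Adipoq, Cfd and Retn, 3 of the 4 adipokines, fell in WT cells between 3W and 12W HFD. Adipoq read 2.13, 1.35, 12.6, 6.30 and 1.95 TPM at 12W HFD, against a lowest of 0.07, a median of 27.5 and a highest of 136 TPM at 3W. All 5 fed libraries were below 6 of the 7 libraries of 3W, and WT 3W replicate 3 alone was below them all. Means were 4.86 ± 4.73 TPM at 12W HFD (n = 5) and 51.8 ± 51.5 TPM at 3W (n = 7), with a change of -2.54 ± 0.82 (limma adjusted p = 0.0349). The call was lost without WT 3W replicate 2, 4, 5 or 7 (adjusted p = 0.0822, 0.0511, 0.0627 and 0.0765) and without WT 12W HFD replicate 1, 2 or 5 (0.0854, 0.0945 and 0.0823). It was also lost with a pseudocount of 0.1 (0.126), with no filter on low values (0.0751) and when only the compared groups were fitted (0.113). Without WT 3W replicate 3 the change was -3.32 (adjusted p = 0.000418). At 6M, on regular diet, Adipoq read 13.2 and 24.4 TPM in WT cells. Both values lay inside the WT 3W range and above all 5 WT libraries of 12W HFD. In KO cells Adipoq read 5.11 and 2.79 TPM at 12W HFD, against 143, 24.6, 62.1, 9.88 and 129 TPM at 3W. Both fed KO libraries lay below all 5 of 3W, and the change of -3.39 ± 1.17 had an adjusted p of 0.102 by limma.

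Cfd made the firmest change of the 10. It read 0, 0.68, 3.23, 0 and 0.77 TPM in WT cells at 12W HFD, against a lowest of 0, a median of 19.9 and a highest of 41.3 TPM at 3W. The 0 at 3W was again replicate 3, and the other 6 libraries, from 5.07 TPM up, were above all 5 fed libraries. The change was -3.07 ± 0.70 (limma adjusted p = 0.00249), and it passed the threshold under all 18 alternatives run, at adjusted p = 2.15e-05 to 0.0265. In KO cells Cfd was listed at 0 in both libraries of 12W HFD, against 9.80, 1.25, 24.8, 5.75 and 20.6 TPM at 3W. All 5 libraries of KO 3W were above 0, and the limma adjusted p was 0.0528, or 0.0185 without KO 3W replicate 2 and 0.0134 with a pseudocount of 0.1. At 6M, on regular diet, Cfd read 9.50 and 19.65 TPM in WT cells. Both values lay inside the WT 3W range and above all 5 WT libraries of 12W HFD. At 1W HFD Cfd was still between 4.42 and 10.7 TPM in the 4 WT libraries. The change of WT 12W HFD against WT 1W HFD was -2.31 ± 0.80 with an adjusted p of 0.0929 by limma, or 0.0211 when only these groups were fitted.

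Retn read 2.66, 0.68, 5.97, 0.11 and 4.28 TPM in WT cells at 12W HFD, against a lowest of 0, a median of 19.6 and a highest of 51.1 TPM at 3W. As with Adipoq, replicate 3 was the one 3W library below the fed range. The change was -2.25 ± 0.70 (limma adjusted p = 0.0275). It lost the call without WT 3W replicate 2, 4 or 7 (adjusted p = 0.0657, 0.0513 and 0.0601), without WT 12W HFD replicate 2 or 4 (0.0789 and 0.0943), with a pseudocount of 0.1 (0.105), with no filter (0.0594) and when only the compared groups were fitted (0.104). In KO cells Retn read 2.16 and 5.28 TPM at 12W HFD, both below the KO 3W range of 7.48 to 48.6 TPM (-2.09 ± 1.00, limma adjusted p = 0.306). At 6M the WT libraries read 3.60 and 1.91 TPM, and the change of -1.98 ± 0.96 against WT 3W (limma adjusted p = 0.194) passed only without WT 3W replicate 3 (-2.62, adjusted p = 0.0251).

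Lep went the other way from a floor. It was listed at 0 in all 5 KO and all 7 WT libraries of 3W, in 19 of 29 libraries in all, and reached 1 TPM in 5. At 12W HFD it read 0.12, 0, 2.49, 3.90 and 1.15 TPM in WT cells. All of these libraries but replicate 2 were above the listed 0 of 3W, and no fold is given against a group at 0 in a file without counts. Lep rose there (limma adjusted p = 0.0305), a call lost without WT 12W HFD replicate 3, 4 or 5 (adjusted p = 0.109, 0.136 and 0.0571) and when only the compared groups were fitted (0.0554). Levels elsewhere were 0.92 and 0 TPM in KO at 12W HFD, 0 and 0.61 TPM in KO and 0, 0, 1.06 and 0.57 TPM in WT at 1W HFD, and 0 and 3.15 TPM at 6M. The 6M libraries had an adjusted p of 0.16 by limma against WT 3W, or 0.0279 without WT 6M replicate 1.

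Between P12 and 3W in WT cells Adipoq had the largest difference of the 10. It read 0.07 TPM at the lowest, 27.5 at the median and 136 at the highest in the 3W libraries, against 0.25 and 5.11 TPM at P12. All libraries of 3W but replicate 3 were above both P12 libraries. The change was 3.29 ± 1.12 (limma adjusted p = 0.148), and without WT 3W replicate 3 it was 4.07 (adjusted p = 0.0105). Plin1 averaged 15.9 TPM at 3W and 22.3 TPM at P12, a change of -0.29 with an interval of -2.16 to 1.58.

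**Figure D2:**
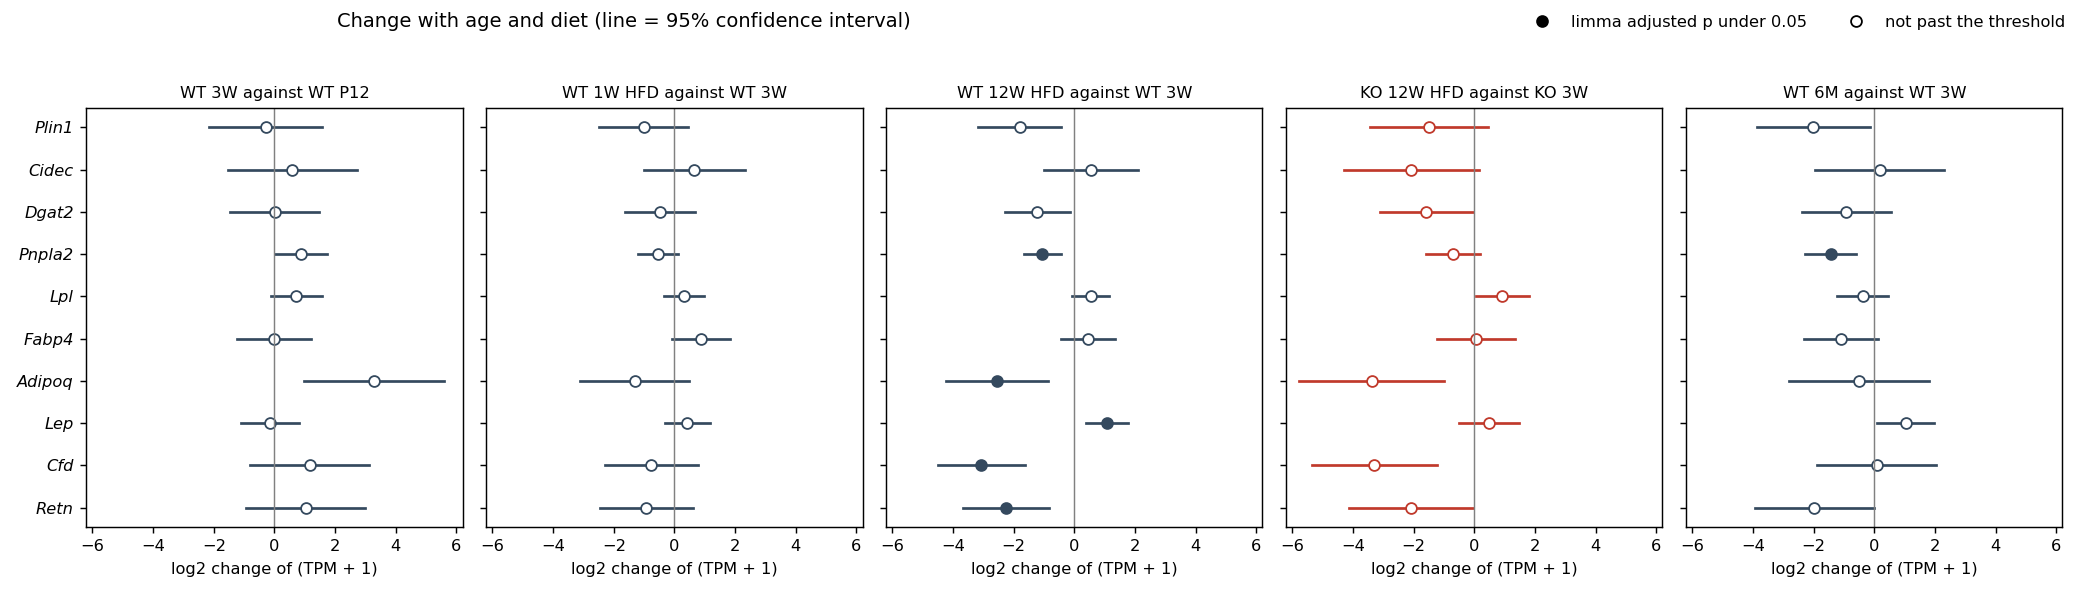
Change of each gene on the log2(TPM + 1) scale, with its 95% confidence interval, for 4 WT comparisons and the KO cells of 12W HFD against 3W; filled points passed the limma threshold. The filled points are Pnpla2, Adipoq, Cfd and Retn below 0 and Lep above 0 for WT 12W HFD against WT 3W, and Pnpla2 for WT 6M against WT 3W.

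Counted over the 10 genes, 5 passed in WT 12W HFD against WT 3W (1 higher and 4 lower), where 14.2% of the 15659 genes tested passed (7.94% higher and 6.23% lower). The median change of the 10 was -1.14, beside -0.04 for all genes. All 10 had passed the filter of 1 TPM in at least 2 libraries. For WT 6M against WT 3W 1 of 10 passed, lower, where 10.8% of genes passed (6.85% lower). In WT 3W against WT P12 0 of 10 passed by limma (1.63% of genes), as in WT 1W HFD against WT 3W (8.03%). At an unadjusted limma p under 0.05 were 2 and 0 of the 10, beside 2228 and 3391 of 15659 genes. The count past the threshold was 0 for WT 12W HFD against WT 1W HFD (5.93% of genes) and against WT 6M (0.881%). There 1 and 3 of the 10 were at an unadjusted limma p under 0.05, beside 2838 and 2189 of 15659 genes.

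In KO cells 0 of 10 passed for 12W HFD against 3W, beside 5.15% of all genes. By limma 5 of the 10 were under an unadjusted p of 0.05, beside 2432 of 15659 genes. The median change of the 10 was -1.54, beside -0.05 for all genes. The KO comparison rests on 2 fed libraries, and whether it differs from the WT one was tested directly. For none of the 10 did the genotype difference at 12W HFD differ past the threshold from that at 3W by limma (0 of 10, beside 0% of genes). The unadjusted limma p was under 0.05 for 419 of 15659 genes and for 0 of the 10. Cidec came nearest, with -2.63 ± 1.32 (interval -5.35 to 0.08; adjusted p = 1). For KO 1W HFD against KO 3W (0.862% of genes) and KO 12W HFD against KO 1W HFD (0.76%) 0 of 10 passed as well. At an unadjusted limma p under 0.05 were 1 and 2 of the 10, beside 1800 and 1245 of 15659 genes.

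Between KO and WT libraries none of the 10 genes passed the threshold by limma at 3W, 1W HFD or 12W HFD. At 3W 0 of 10 passed, as did 0% of all genes. By limma the unadjusted p was under 0.05 for 546 of 15659 genes and for 0 of the 10. Of the changes 8 were positive, 1 was negative and Lep was at 0 in every library, with a median of 0.31 beside 0.01 for all genes. Without WT 3W replicate 3, 6 were positive and 3 negative, with a median of 0.16, and Fabp4 was at 0.31, Plin1 at 0.20 and Cfd at -1.14, against 0.60, 0.53 and -0.51 with it. With the pairs of the titles as a block the median was 0.26 and 0 of 10 passed. Within pairs Fabp4 and Lpl were higher in KO in 4 of 5, Adipoq, Cidec, Cfd, Retn, Pnpla2 and Dgat2 in 3 of 5 and Plin1 in 2 of 5. Adipoq read 143, 24.6, 62.1, 9.88 and 129 TPM in KO, against a lowest of 0.07, a median of 27.5 and a highest of 136 TPM in WT. The KO values all lie within or just above the WT range. The change was 0.90 ± 0.82, with an interval of -0.78 to 2.58, and 0.13 without WT 3W replicate 3. Without that library Cidec and Retn turned to the other side of 0, at -0.15 and -0.25, against 0.23 and 0.39 with it. Intervals at 3W, from the fit without the pairs, were narrowest for Lpl (-0.18 to 1.05) and Pnpla2 (-0.43 to 0.80). The change of Pnpla2 in WT 12W HFD against WT 3W lies outside the second. Tcf21 RNA was still present in these KO libraries, so the interval does not bound the effect of its full loss. The intervals of Plin1 (-0.83 to 1.90), Cfd (-1.95 to 0.93) and Retn (-1.04 to 1.83) were wider.

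At 1W HFD 0 of 10 passed between KO and WT, beside 0.0255% of all genes. By limma the unadjusted p was under 0.05 for 540 of 15659 genes and for 0 of the 10. Adipoq stood at 7.03 and 5.92 TPM in the KO libraries, against 7.74, 20.9, 13.8 and 4.03 TPM in the WT ones, and the KO values sat inside the WT range (-0.55 ± 1.21, interval -3.04 to 1.93). At 12W HFD 0 of 10 passed, beside 0.00639% of all genes. By limma 570 of 15659 genes were under an unadjusted p of 0.05, and of the 10 Cidec alone. Cidec read 0.17 and 0.50 TPM in the KO libraries, against 2.80, 3.13, 14.2, 21.1 and 2.26 TPM in WT. Both KO libraries lay below all 5 WT libraries. The change was -2.41 ± 1.08 (interval -4.63 to -0.19; limma adjusted p = 1). Lpl stood at 1823 and 3289 TPM in the KO libraries, against 668 to 2099 TPM in the WT ones (0.81 ± 0.43, limma adjusted p = 1). The genotype difference at 1W HFD did not differ past the threshold from that at 3W for any of the 10 by limma (beside 0.00639% of genes). The unadjusted limma p was under 0.05 for 413 of 15659 genes and for 0 of the 10.

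**Figure D3:**
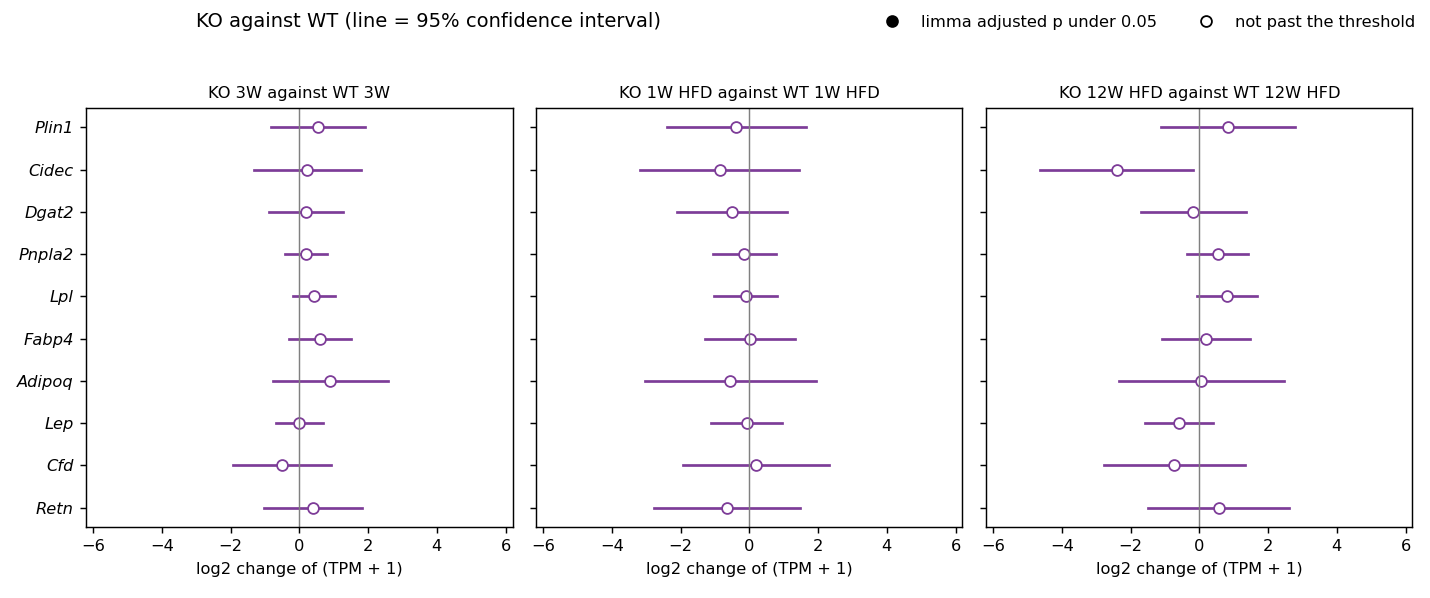
KO against WT change of each gene on the log2(TPM + 1) scale with its 95% confidence interval at 3W, 1W HFD and 12W HFD. All points are open, and only the interval of Cidec at 12W HFD (-4.63 to -0.19) leaves out 0.

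Other genes of the same pathways moved in both directions in WT 12W HFD against WT 3W. Their counts are to be read against the 7.94% of all genes tested that rose and the 6.23% that fell. Some of the lists share genes, so their counts are not separate. The mature fat cell markers include Slc2a4 and Pck1 of the uptake list, Plin4, Cidea and Aqp7 of the droplet list and Adig of the adipokine list. Insr is in both the uptake and the receptor list. Of 18 tested lipid droplet and lipolysis genes 2 rose and 0 fell, with a median change of -0.09 beside -0.04 for all genes. Plin2, a droplet coat protein of many cell types, stood at 817 TPM at 12W HFD and 203 TPM at 3W (2.00 ± 0.24, limma adjusted p = 3.68e-07), and Hilpda, an inhibitor of Pnpla2, at 85.3 and 50.8 TPM in the same order (0.70 ± 0.19). Of 24 uptake and synthesis genes 4 rose and 5 fell (median -0.15). Among the risers were the fatty acid receptor Cd36 (595 against 79.3 TPM, 3.01 ± 0.50) and Gpihbp1 (48.2 against 2.53 TPM, 3.61 ± 0.68), which holds Lpl on vessel walls. The fallers included the insulin-responsive glucose transporter Slc2a4 (0.516 against 4.35 TPM, -1.70 ± 0.49) and the fatty acid activating enzyme Acsl1 (6.49 against 19.8 TPM, -1.41 ± 0.36).

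Of 16 adipogenic transcription factors 0 rose and 4 fell (median -0.32), among them Klf15 (7.23 TPM at 12W HFD against 36.0 TPM at 3W, -2.28 ± 0.31) and the carbohydrate sensor Mlxipl (0.062 against 3.18 TPM, -1.64 ± 0.41). Of 11 other adipokines 2 rose and 1 fell (median 0.22). The faller was Rbp4, the carrier of retinol in blood, at 34.7 TPM at 12W HFD and 707 TPM at 3W (-4.48 ± 0.48, limma adjusted p = 5.75e-08). Of 7 adipokine receptor genes 0 rose and 2 fell (median -0.49), led by the leptin receptor Lepr at 0.042 against 22.6 TPM (-4.22 ± 0.55). Of 11 tested mature fat cell markers 0 rose and 4 fell (median -0.38), the largest being the imprinted gene Nnat at 3.05 against 28.2 TPM (-2.58 ± 0.53) and the adrenergic receptor Adrb3 at 0.16 against 4.45 TPM (-1.98 ± 0.53).

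In KO cells of 12W HFD against 3W, Plin2 stood at 846 against 211 TPM (2.01 ± 0.34), Cd36 at 615 against 105 TPM (2.58 ± 0.71), Klf15 at 6.79 against 32.8 TPM (-1.96 ± 0.44), Rbp4 at 26.2 against 649 TPM (-4.52 ± 0.69) and Lepr at 0.165 against 15.8 TPM (-3.11 ± 0.78), each past the limma threshold. WT 12W HFD and WT 6M share the 3W control libraries. In WT 6M against WT 3W Rbp4 (-4.21 ± 0.66), Lepr (-4.20 ± 0.75) and Klf15 (-1.41 ± 0.42) fell. Of 18 droplet and lipolysis genes 0 rose or fell there by limma, where 10.8% of all genes passed. The unadjusted limma p was under 0.05 for 1 of the 18, beside 3929 of 15659 genes. In WT 1W HFD against WT 3W, where 8.03% of all genes passed, Gpihbp1 rose (83.9 against 2.53 TPM, 4.56 ± 0.72), as did Aqp7, the glycerol channel of fat cells (17.8 against 1.73 TPM, 2.39 ± 0.65), and Mgll, which acts after Pnpla2 in triglyceride breakdown (87.6 against 35.6 TPM, 1.24 ± 0.32). Cebpb, an early adipogenic factor, fell there (15.2 against 254.6 TPM, -3.86 ± 0.86). In WT 3W against WT P12 Gpihbp1 fell (2.53 against 41.4 TPM, -3.92 ± 0.93) and the nuclear receptor gene Nr1h3 rose (48.0 against 14.6 TPM, 1.66 ± 0.40).

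Markers of other cell types moved with these results. Their counts are to be read against all genes tested. Of these, 7.94% rose and 6.23% fell in WT 12W HFD against WT 3W. In WT 6M against WT 3W 4% rose and 6.85% fell. In KO 12W HFD against KO 3W 3.19% rose, and in WT 1W HFD against WT 3W 4.78% rose. Between P12 and 3W in WT cells 0.626% rose and 1% fell. The 16 macrophage markers, led by Cd74, Lyz2 and Lgals3, summed to 4531 to 12210 TPM in WT libraries at 12W HFD and 79.1 to 255 TPM at 3W, with 16 of 16 rising. They summed to 3762 to 7788 TPM in KO at 12W HFD and 156 to 689 TPM at 3W, with 14 of 16 rising, and to 3331 to 7705 TPM at WT 6M, with 14 of 16 rising against 3W. Lpl, Plin2, Hilpda and Cd36 are among the genes named here that are also known to be expressed in macrophages, and this list is not complete. Endothelial markers, led by Plvap, summed to 348 to 1103 TPM at P12, 65.4 to 129 TPM at WT 3W, 206 to 559 TPM at WT 1W HFD and 94.5 to 339 TPM at WT 12W HFD. Of 13 of them 7 fell between P12 and 3W and 8 rose between 3W and 1W HFD, beside Gpihbp1 and Aqp7, genes known in vessel cells too. Lymphocyte markers summed to 46.2 to 195 TPM at WT 12W HFD and 0.22 to 5.31 TPM at WT 3W, and 7 of 8 tested rose. Mature fat cell markers summed to 28.6 to 64.5 TPM at WT 12W HFD and 23.0 to 145 TPM at WT 3W. Stromal markers summed to 24170 to 26734 TPM and 24529 to 40349 TPM in the same order. Pericyte and smooth muscle markers, led by Acta2, summed to 74.5 to 165 TPM at WT 12W HFD and 20.5 to 48.6 TPM at 6M, against 105 to 2377 TPM at WT 3W. Of 8 of them 3 fell at 12W HFD, among them Acta2 (74.5 against 532 TPM, -2.27 ± 0.68), and 4 fell at 6M. Erythroid markers, led by Hba-a1, summed to 1116 to 9489 TPM at WT 3W and 9.68 to 880 TPM at P12, and 4 of 6 tested rose between them. They summed to 3614 to 41700 TPM at WT 12W HFD and 9135 to 39122 TPM at 6M. Against 3W 0 of 6 were past the limma threshold in either. At an unadjusted limma p under 0.05 were 0 and 2 of the 6, beside 4043 and 3929 of 15659 genes. The 41700 TPM stood in WT 12W HFD replicate 2, the library with the lowest value of 7 of the 10 members. Neutrophil markers, led by S100a8, summed to 2.34 to 19.9 TPM at WT 12W HFD and 11.1 to 352 TPM at 6M, against 0 to 6.44 TPM at WT 3W, and of 5 tested 1 and 3 rose. In bulk libraries fewer cells of a type and less RNA per cell cannot be told apart, and the part of these markers in the results was not tested.

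**Figure D4:**
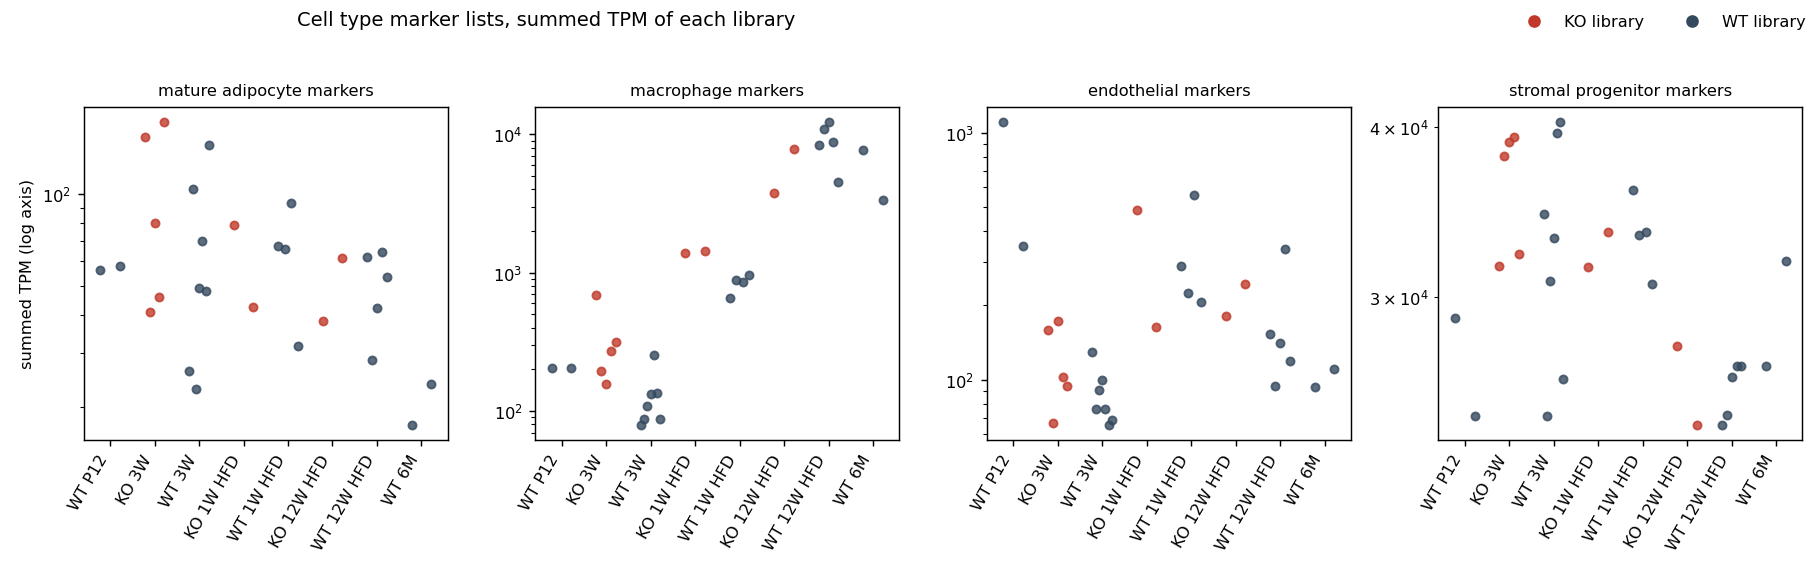
Summed TPM of 4 cell type marker lists in every library, on log axes, with KO in red and WT in dark blue. Macrophage markers stand at 3762 to 12210 TPM in the 7 libraries of 12W HFD and 79.1 to 689 TPM in the 12 libraries of 3W, while mature fat cell markers stay between 17.45 and 172 TPM.

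At the genotype level the same lists read as follows. Of all 15659 genes tested the unadjusted limma p was under 0.05 for 546 at 3W, 540 at 1W HFD and 570 at 12W HFD. At 3W macrophage markers summed to 156 to 689 TPM in KO and 79.1 to 255 TPM in WT, with 0 of 16 past the limma threshold and 6 at an unadjusted p under 0.05. Mature fat cell markers summed to 41.0 to 172 TPM in KO and 23.0 to 145 TPM in WT, with 0 of 11 past it and 1 at an unadjusted p under 0.05. Endothelial markers summed to 66.5 to 173 TPM in KO and 65.4 to 129 TPM in WT, with 0 of 13 past it and 1 at an unadjusted p under 0.05. At 1W HFD mesothelial markers summed to 94.6 to 192 TPM in KO and 80.3 to 122 TPM in WT, with 1 of 9 past the limma threshold, higher (Lrrn4, listed at 0 in WT), and 6 at an unadjusted p under 0.05. At 12W HFD macrophage markers summed to 3762 to 7788 TPM in KO and 4531 to 12210 TPM in WT, and 0 of 16 passed by limma, with 0 at an unadjusted p under 0.05. Their part in the KO against WT values of the 10 genes was not tested.

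The order of group means differed between the genes. KO 3W had the highest mean for Plin1, Cidec, Dgat2, Pnpla2 and Adipoq, and WT 3W for Cfd and Retn. Lpl was highest in KO 12W HFD, Fabp4 in KO 1W HFD and Lep in WT 6M. The lowest means were those of KO 12W HFD for Cidec, Dgat2 and Cfd, of WT 6M for Plin1, Pnpla2 and Fabp4, of P12 for Adipoq and Lpl, and of WT 12W HFD for Retn. Lep was lowest in KO 3W and WT 3W alike, at 0 in every library. For 7 of the 10 genes every group's range overlapped that of the next group in the order, and the exceptions were 1 step each in Plin1, Cidec and Fabp4. Overlap of this kind was not counted over all genes, so this only describes the 10. The gap in Cidec separated P12 (3.54 and 1.27 TPM) from KO 12W HFD (0.17 and 0.50 TPM), and that in Fabp4 separated P12 (488 and 506 TPM) from WT 6M (189 and 269 TPM).

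Within a group, some libraries held the highest or the lowest value of most of the members that varied. In WT 3W, replicate 2 held the highest value of 6 of the 9 members that varied and replicate 3 the lowest of 6. In KO 3W, replicate 2 held the lowest of 7 of 9, and in WT 12W HFD replicate 2 held the lowest of 7 of 10. How often these libraries were highest or lowest over all genes was not counted. Over the 29 libraries Adipoq and Retn had the highest correlation of log2(TPM + 1) among the 45 pairs of members (r = 0.84), then Plin1 and Retn (r = 0.79), while Plin1 and Lep had the lowest (r = -0.50). These points share library and group, so r only describes likeness. Searched over all genes tested, the closest to Adipoq after Retn were Thrsp (0.82), a regulator of fatty acid synthesis, and Adig (0.79), a fat cell membrane protein that was also closest to Plin1 (0.79) and Retn (0.87). Slc22a4 (0.79) came after Adig and Retn for Plin1. Cfd was closest to Rgs6 (0.77), Eci1 (0.72) and Bend5 (0.72), Pnpla2 to Btrc (0.82), Plekhg3 (0.78) and Por (0.77), and Dgat2 to Elovl5 (0.74), Prmt5 (0.71) and Acsl1 (0.70).

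Lpl was closest to the glycolytic enzyme gene Aldoa (0.87), Pgd of the pentose phosphate pathway (0.83) and the basement membrane collagen gene Col4a2 (0.82). Fabp4 was closest to Slc25a20 (0.78), the mitochondrial carrier of acylcarnitines, Stk38 (0.76) and Arhgap29 (0.73), and Cidec to Rnaseh1 (0.67), Stx4a (0.63) and Trp53rka (0.60). For Lep the nearest were Tmem45b (0.83), Pik3r6 (0.72) and Ipcef1 (0.70), of which Tmem45b reached 1 TPM in 4 libraries and Ipcef1 in 2.

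Around the 10 genes 49 of 124 ATAC regions (39.5%) had a peak in all 9 lists, where 29% of all 123191 regions did. The windows hold 1 to 10 other genes each, so a region is near a member without being assigned to it. Cfd had 7 of 9 regions in all lists, one of them (chr10:79892425-79894207) over the 3′ end of the gene and another (chr10:79851035-79885533) 5319 bases before it. Dgat2 had 9 of 22, with one at each end of the gene (chr7:99153866-99156765 and chr7:99180880-99184106). Lpl had 5 of 17, including chr8:68879203-68885519 over the lower-coordinate end of its body. Pnpla2 had 6 of 19, of which chr7:141453860-141485835 covers the whole gene. That region is 31976 bases of merged peaks, where the median peak width of a list was 964 to 1437 bases. A region in all 9 lists has a peak of each list somewhere in it, which need not cover its whole width.

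Adipoq had 3 of 7 regions in all 9 lists, all at lower coordinates, the nearest 16896 bases before the gene (chr16:23126616-23129639), and no region touched the gene body. Lep had 4 of 12, the nearest 13448 bases past its higher-coordinate end, with 1 region of a single list inside it. Plin1 had 5 of 11, of which 2 lay inside the gene (chr7:79720705-79723262 and chr7:79726873-79731673). Cidec had 6 of 12 and Retn 3 of 6, and none of these touched the gene. One region over Retn (chr8:3654676-3656664) was in 2 lists and one inside Cidec in 1 list. Fabp4 had 1 of 9, and the wide region over its body (chr3:10199925-10209663) was missing only from WT 3W replicate 3, whose list had 1 of the 9 Fabp4 regions.

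**Figure D5:**
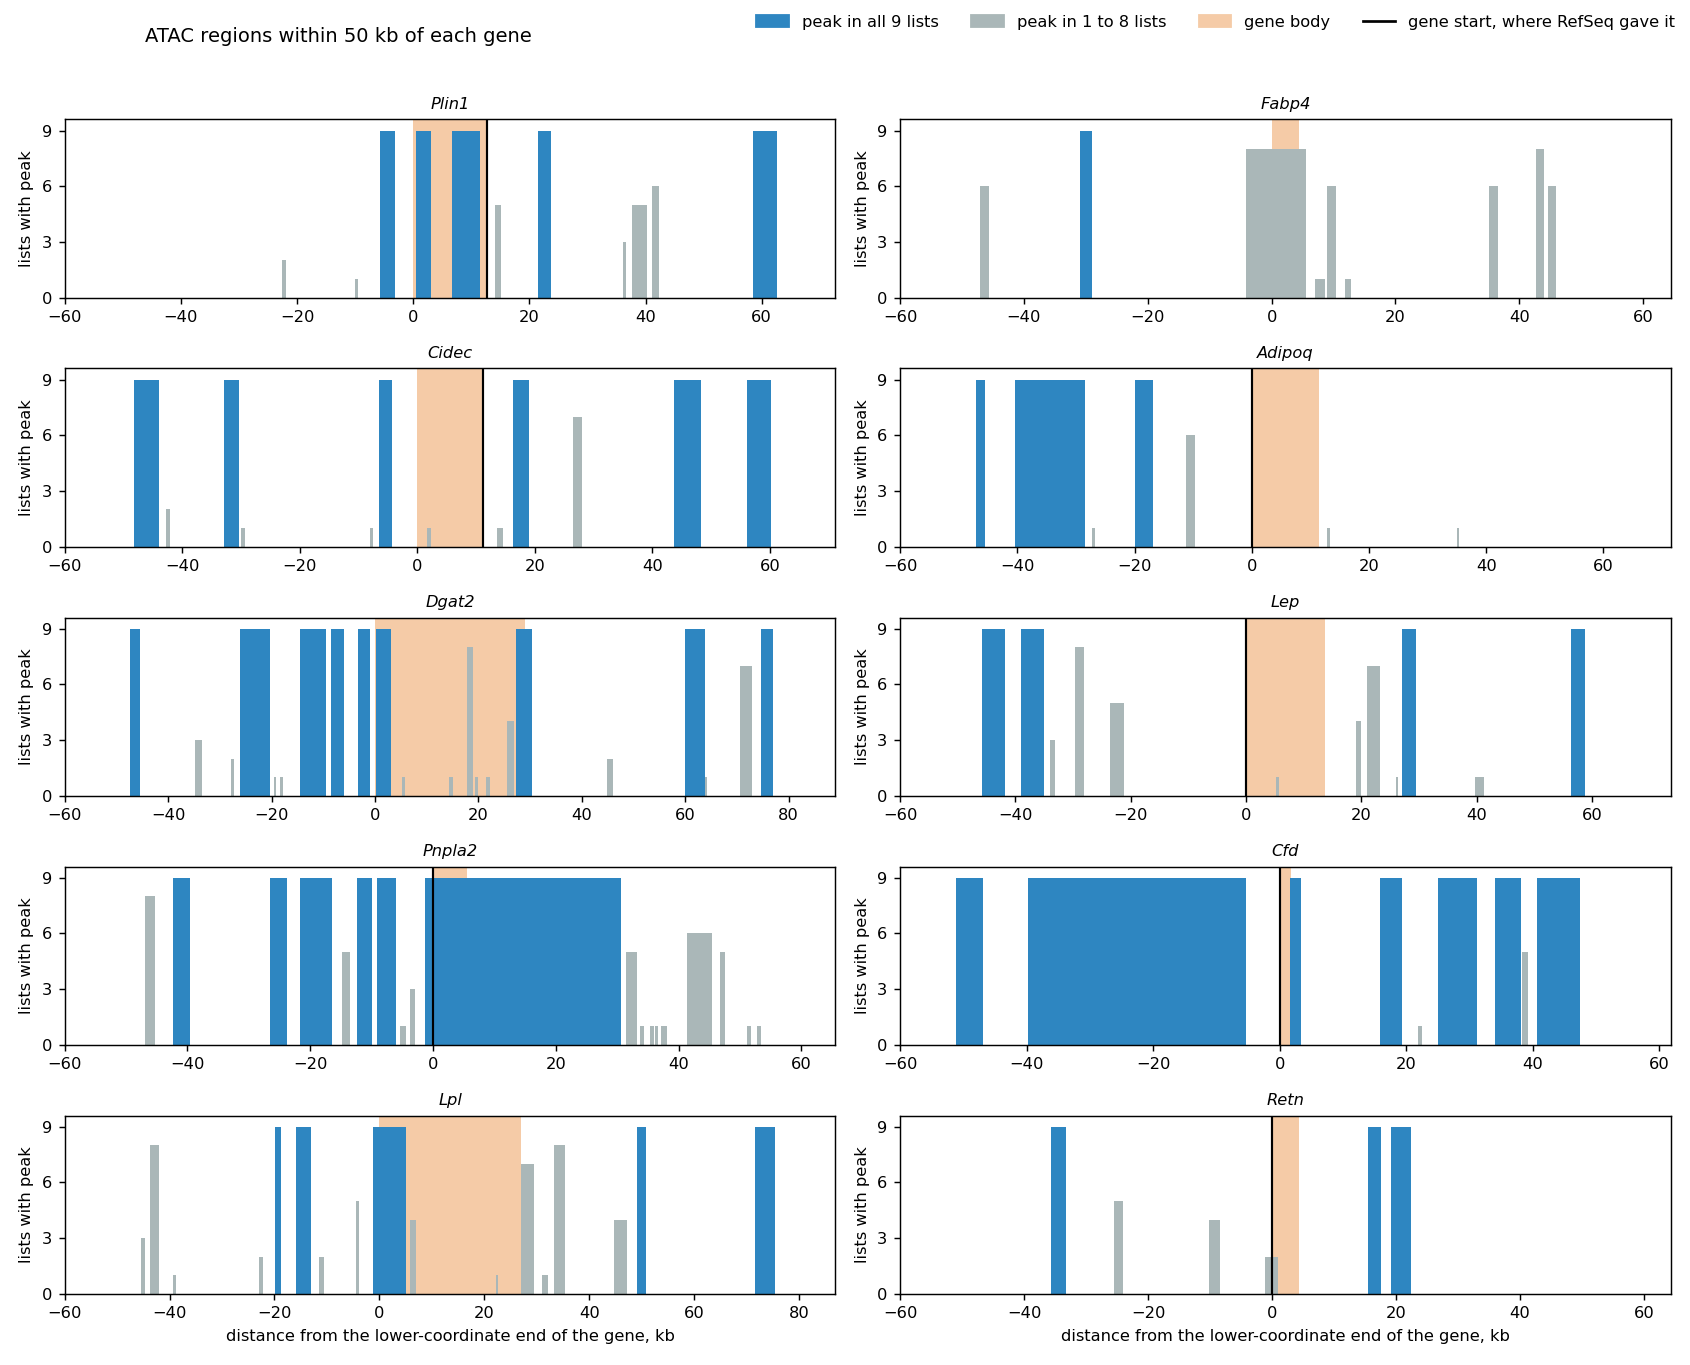
ATAC regions around each gene by distance in kb from its lower-coordinate end; the height is the number of the 9 lists with a peak, blue regions are in all 9, and the shaded span is the gene body with a black line at its start where RefSeq gave one. Adipoq has no region over its body, while Pnpla2, Dgat2 and Lpl have regions of 9 lists there.

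Regions were then compared between groups of lists. Of the 124 regions 7 (5.65%) were in both KO 3W lists and no WT 3W list, where 2.98% of all regions were, and 0 were in every WT 3W list and no KO 3W list (0.0503% of all). Near Fabp4 lay 3 of the 7, at 4517, 30700 and 45705 bases from the gene, and 1 each near Plin1, Lpl, Lep and Pnpla2. Of these 7, 6 were also in both 1W HFD lists and 5 in both 12W HFD lists of WT cells. The 7 were picked for absence from the WT 3W lists, and the HFD lists held 76321 to 93314 peaks. The same overlap was not counted over all regions, so no likeness of KO 3W to the HFD lists is read from it. The median rank of the 7 was the 39.1 percentile of a list, beside 85.9 for the 49 regions open in all lists. The WT 3W lists held 55990 to 77862 peaks and the KO 3W lists 78643 and 84876, and with peaks of −log10 q of at least 5 the count was 2, or 3 with the 50000 strongest peaks of each list.

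For diet, 12 regions (9.68%) were in both WT 1W HFD lists and no WT 3W list, where 6.68% of all regions were, and 10 (8.06%) in both WT 12W HFD lists and no WT 3W list, where 9.72% were. The reverse held for 0 regions in both comparisons, where 0.313% and 0.614% of all regions did. Both sets shared 7 regions. Plin1 held 4 of the 10 regions of 12W HFD, Fabp4 3, Lpl 2 and Lep 1. Between the diet times 1 region near Plin1 was in both 12W HFD lists and no 1W HFD list (0.806%, beside 3.98% of all), and 2 near Lpl were the reverse (1.61%, beside 2.73%). Near Adipoq, Cfd, Retn and Cidec 0 regions separated any of these groups. First letters of the peak names, A or B, whose meaning the labels leave unsaid, split the lists. The B lists were replicate 2 of KO 3W together with replicates 2 and 3 of WT 3W. Within A, KO 3W replicate 1 had 15 regions that WT 3W replicate 1 lacked and lacked 5 of its regions. These lists are pair 1 of the titles, and in pair 2 KO 3W replicate 2 had 21 regions that WT 3W replicate 3 lacked and lacked 2 of its regions. Within B, KO 3W replicate 2 had 18 that both WT lists lacked, and lacked 0 that both had. Within A the HFD lists had 16 to 22 that WT 3W replicate 1 lacked and lacked 3 to 10 of its regions. The same counts within a letter or a pair were not made over all regions, and the lists differ in length. KO 3W replicate 1 held 84876 peaks, against 77862 in WT 3W replicate 1. KO 3W replicate 2 held 78643, against 55990 and 58675 in WT 3W replicates 2 and 3. Whether the regions near the 10 genes differ here from all regions was therefore not tested.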

How the data were processed

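The authors deposited gene expression as TPM in one table of WT and one of KO libraries, and ATAC-seq as 1 peak list per library on mm10. Per the submitters' processing notes the tools were Trim Galore 0.6, FastQC, STAR 2.5.3a, RSEM, Bowtie2 2.3 and MACS2, with no step named for each. Strand use in counting is not stated in the sources used here. The deposited peaks carry a score, a fold enrichment ratio, a −log10 p and a −log10 q, which were used only to rank, filter or describe peaks within a list.

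TPM columns summed to 918008 to 969385. TPM keeps no read depth, so no counting interval was computed and a value listed at 0 does not show absence. No 2 libraries held identical values (0 pairs). Samples were grouped by their titles, as the genotype field differed in 22 of 38.

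Genes of at least 1 TPM in at least 2 of 29 libraries (15659) were fitted as log2(TPM + 1) with limma 3.58.1 in R 4.3.3, with a mean for each of 8 groups, no covariate, 21 residual degrees of freedom and a mean-variance trend in eBayes. The titles pair KO with WT libraries at 3W. Deviations from the group means correlated at -0.13 to 0.48 within a pair, above 0.1 in 5 of 6, and all 5 KO libraries correlated best with their own pair. Outside the pairs KO and WT libraries correlated at -0.27 to 0.15, some of them also above 0.1. The main fit had no block because the labels do not say what a pair shares. Two-sided p-values were adjusted by Benjamini-Hochberg over all genes tested, with a threshold of 0.05; "passed", "rose" and "fell" mean this. The fit was tested on simulated data. A ± gives the SD beside a TPM and the SE beside a log2 change; intervals are 95%. The scale understates changes of low genes. Tcf21 was also tested by exact permutation (SciPy 1.17.1).

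Peaks of the 9 lists were merged where they overlapped by at least 1 base. A region counts for a gene within 50 kb of its body. With 2 or 3 lists a group and lists of 55990 to 93314 peaks, no test was made between lists. Promoter sequences are RefSeq's, on GRCm38.p6.

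The 10 genes and the lists were chosen with earlier results of these data known. Besides them, the text names up to 4 genes per list that passed, by size of change, the 3 most abundant markers, and the 3 genes most correlated with each member. Where one gene was named to check a cell type (Ucp1, Plin4), it was chosen after its value was seen.

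Alternatives were a pseudocount of 0.1, no filter, columns rescaled to 1000000, median-ratio scaling, a fit of the compared groups alone, a replicate block, and each library left out in turn. For peaks they were a window of 10 kb, −log10 q of at least 5, the 50000 strongest peaks, 500-base windows on summits, and each list left out.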

Additional observations from a re-analysis of the deposited data

Results flagged for a closer look

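In WT 3W, replicate 3 lay far from the other 6 libraries for 3 genes. Adipoq read 0.07 TPM there, against 19.63 to 135.8 TPM in the others, Fabp4 146.6 TPM against 430.2 to 929.9 TPM, and Retn 0 TPM against 9.5 to 51.08 TPM. The gap to the nearest other library took 0.61, 0.582 and 0.595 of the group's whole range, above Dixon's 95% critical value of 0.568 for 7 samples. In WT 12W HFD, replicate 4 read 24.72 TPM of Pnpla2, against 10.67 to 13.38 TPM in the other 4 libraries, a gap of 0.736 of the range beside a critical value of 0.71. These were 4 of 38 sets of one gene in one group, and chance alone passes about 1 in 20 such sets.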

How the results depend on the processing

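Of 2190 single-gene changes under an alternative, 2128 kept their direction and their side of the threshold or moved by less than 1 SD, and 0 reversed a call. For WT 12W HFD against WT 3W, 5 genes passed, against 3 with a pseudocount of 0.1, 3 without a filter, 2 with the compared groups alone, 3 with a replicate block and 2 to 6 with a library left out. For WT 6M against WT 3W, 1 passed, against 0 with median-ratio scaling, 0 with the block and 0 to 2 with a library left out. For WT 3W against WT P12, 0 passed, against 1 with the block and 0 to 1 with a library left out. For WT 12W HFD against WT 1W HFD it was 1 with the compared groups alone. For KO 12W HFD against KO 3W it was 1 with a pseudocount of 0.1 and 0 to 1 with a library left out. Median-ratio scaling moved the split of all called genes to 60 higher and 45 lower, against 110 and 28, for WT 12W HFD against WT 6M, to 644 and 268, against 554 and 374, for WT 12W HFD against WT 1W HFD, and to 97 and 30, against 77 and 42, for KO 12W HFD against KO 1W HFD. Fits with 1 library fewer test fewer samples; otherwise the cause was not tested. Within the pairs of 3W the block changed no call of KO against WT. In the other comparisons libraries share only a replicate number across ages or diets, and with that number as a block Adipoq (adjusted p = 0.115), Retn (0.0855) and Lep (0.0547) did not pass and Dgat2 (0.0381) did for WT 12W HFD against WT 3W by limma. Pnpla2 (0.0704) did not pass for WT 6M against WT 3W, and Adipoq (0.0272) passed for WT 3W against WT P12.

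Within 10 kb, 16 regions were open in all 9 lists. Regions that separated KO 3W from WT 3W numbered 7, and 2 within 10 kb, 2 at −log10 q of at least 5, 3 with the 50000 strongest peaks and 7 to 15 with a list left out. For WT 1W HFD against WT 3W there were 12, and 4 within 10 kb, 4 with the strongest peaks and 12 to 22 with a list left out. For WT 12W HFD against WT 3W there were 10, and 3 within 10 kb and 10 to 21 with a list left out. For WT 12W HFD against WT 1W HFD there were 3, and 1 within 10 kb, 6 with the strongest peaks, 7 with 500-base summit windows and 7 to 19 with a list left out. Depth is unknown for the TPM values, and groups of 2 libraries limit every KO comparison on HFD and those of P12 and 6M.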
